A study of Mus musculus with 6 samples.

Results

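The 10 genes Hspa1a, Hspa1b, Hspa8, Hsph1, Dnajb1, Hsp90aa1, Chordc1, Hspb1, Hspd1 and Hspe1 encode heat shock proteins and cochaperones, and they were followed here in the mouse hippocampus with and without inhibitor-1. They were taken by name: all probe sets that the platform annotation gives to exactly 1 of these symbols were used, which made 23 of the 45101 probe sets on the array, and no probe set with several symbols carried one of the names. Total RNA of hippocampus was measured on 6 one-colour Affymetrix arrays, 3 from wild-type mice and 3 from inhibitor-1 knock-out mice, which lack Ppp1r1a, the gene of this inhibitor of protein phosphatase 1. The labels state genotype, tissue and a replicate number. Strain, sex, age, the targeted allele and whether each array came from its own animal are not given in the sources used here, so a p-value here reflects the scatter among these samples, part or all of which may be technical.

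Heat shock proteins are molecular chaperones: they hold, fold or hand on proteins that have lost their shape. Proteins of the HSP70 family bind short unfolded stretches in a cycle driven by ATP, J-domain proteins such as HSP40 load them, HSP110 resets them by nucleotide exchange, and HSP90 matures kinases and steroid receptors with the help of its own cochaperones. When unfolded proteins build up, heat shock factor 1 (HSF1) binds repeats of the letters GAA in alternating orientation, called heat shock elements, and raises transcription of the inducible members. In neurons the constitutive members are abundant at rest, and the inducible ones respond to heat, ischaemia and handling of the tissue.

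Ppp1r1a checked the labels: its probe set 1422605_at read 8370.3 to 10345 on the wild-type arrays and 248.5 to 347 on the knockout arrays, a log2 difference of -4.93 (SE 0.18; adjusted p in limma 3.58e-07). All 13 listed markers of hippocampal neurons passed the intensity filter, among them Prox1 of dentate granule neurons (log2 level 10.4 to 11.4 over the 6 arrays) and Wfs1 of CA1 neurons (13.5 to 13.7). The beta-actin control probe sets had a ratio of 3' to 5' signal between 1.24 and 1.30 for wild-type arrays and between 1.18 and 1.21 for knockout arrays. For the Gapdh control probe sets the groups overlapped, with 0.81 to 0.88 for wild-type arrays and 0.82 to 0.83 for knockout arrays. Markers of bordering tissue were uneven: of 15 tested markers of choroid plexus and ependyma, 12 had a change above 0 (mean centred log2 level -0.75 to 0.08 on the wild-type arrays and -0.24 to 0.49 on the knockout arrays), and so had 14 of 14 meningeal and fibroblast markers (-0.30 to 0.01 and -0.15 to 0.42). These levels are relative to each gene's mean over the 6 arrays, and all markers counted here had passed the intensity filter. The part of RNA quality and of bordering tissue in the values below was not tested. In whole tissue, fewer cells of a type and less RNA per cell cannot be told apart.

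None of the 10 genes passed the test between genotypes. Values were compared as log2(intensity + 16) with limma over 26999 probe sets, and an adjusted p under 0.05 was the threshold. The filter left out the dimmest 40% of probe sets by mean, and 21 of the 23 heat shock probe sets lay above it. Of these 21, 0 passed, against 0.0111% of all tested probe sets, and the lowest adjusted p was 0.988 (limma). At an unadjusted p under 0.05 there was 1 of 21, Hspa1a, against 4.38% of all tested probe sets. The 21 log2 changes ran from -0.42 to 0.23, 13 above 0 and 8 below. With each gene taken at its brightest probe set, 5 genes had a change above 0 and 5 below, with a median log2 change of 0.02 against 0.0003 over all 12493 genes.

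**Figure D1:**
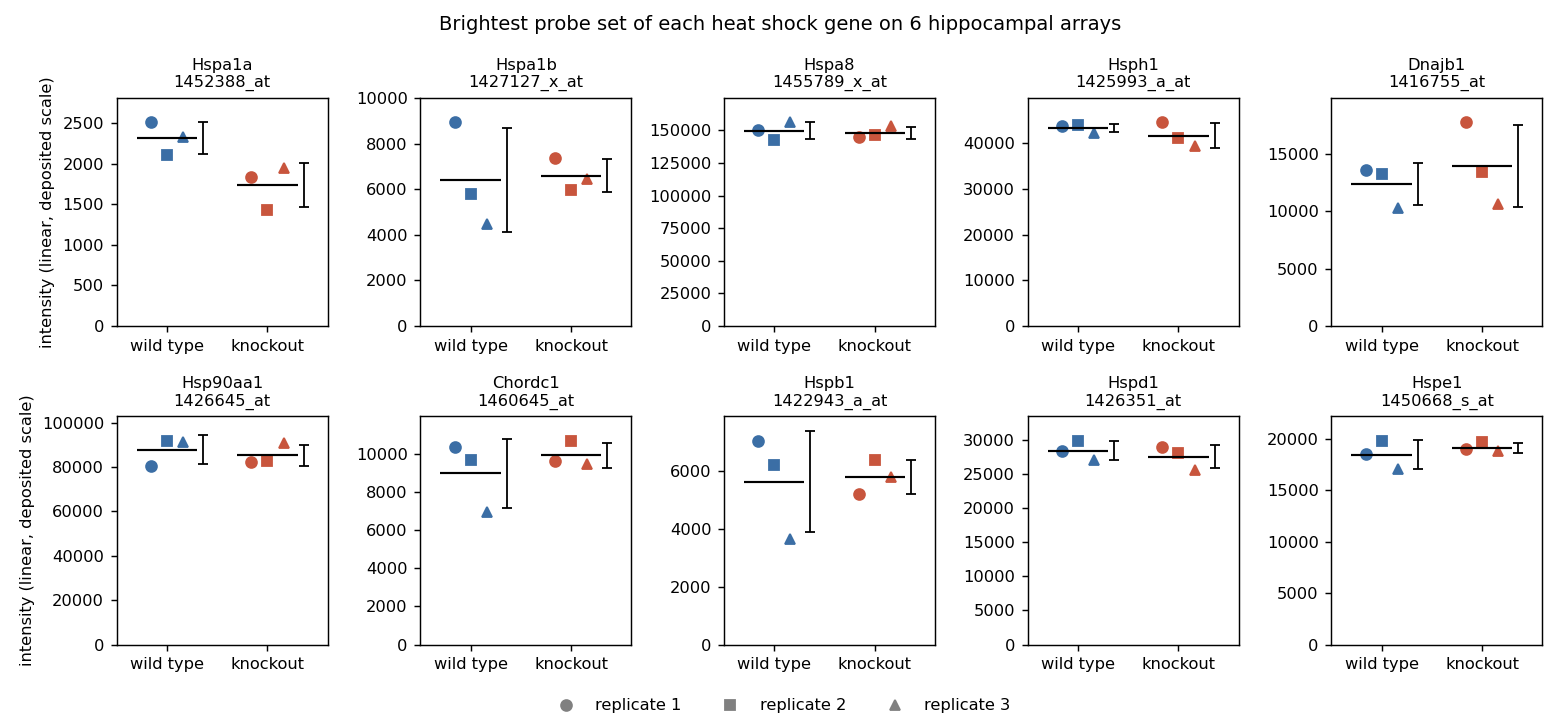
Deposited intensity (linear scale, vertical axis from 0) of the brightest probe set of each gene in wild type (blue) and knockout (red); symbols are replicates 1 to 3, lines the mean and bars the SD (n = 3). Hspa1a is the 1 gene whose groups do not overlap, and Hspa1b, Chordc1 and Hspb1 have a low value on wild type replicate 3.

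Hspa1a and Hspa1b are the stress-inducible HSP70 genes. They are near copies on mouse chromosome 17, their start sites 12918 bases apart (GRCm38.p6), and encode almost the same protein. The 250 bases upstream of each start, from RefSeq, are shown because they are alike at 247 positions, so that both genes carry the same heat shock element. The capitals mark that element, GAANNTTC with N for any base. The window of Hspa1a lies at chr17:34972157-34972406 and that of Hspa1b at chr17:34959239-34959488, both on the minus strand and written 5′ to 3′ in the direction of transcription.
Hspa1a: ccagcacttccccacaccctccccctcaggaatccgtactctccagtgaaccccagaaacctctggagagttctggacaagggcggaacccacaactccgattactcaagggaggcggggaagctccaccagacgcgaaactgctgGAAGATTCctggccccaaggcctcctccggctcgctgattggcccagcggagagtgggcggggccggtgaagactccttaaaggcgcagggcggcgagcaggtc
Hspa1b: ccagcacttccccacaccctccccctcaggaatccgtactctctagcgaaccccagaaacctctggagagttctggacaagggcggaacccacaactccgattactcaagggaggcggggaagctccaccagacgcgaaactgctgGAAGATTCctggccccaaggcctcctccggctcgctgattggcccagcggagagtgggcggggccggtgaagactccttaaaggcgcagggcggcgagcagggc
Counted from 1 at the 5′ end of the window, Hspa1b differs from Hspa1a by C44T, T47C and T249G. The element lies at 104 to 97 bases upstream of the start in both, and none of the 3 differences falls in it.

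Hspa1a was read by 1 probe set, 1452388_at. Its intensity was 2510.3, 2112 and 2331 in wild type replicates 1, 2 and 3 and 1835, 1429.7 and 1944 in the knockout replicates. All 3 knockout values lay below all 3 wild-type values. The wild-type mean was 2318 ± 199.5 (SD, n = 3) and the knockout mean 1736 ± 271.2 (SD, n = 3), a log2 change of -0.42 (SE 0.17, 95% interval -0.79 to -0.06 without adjustment). The unadjusted p was 0.026 and the adjusted p 0.988 (limma), so the difference did not pass. It was the 1 of 21 probe sets without overlap (4.76%, against 9.89% of all tested probe sets).

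Hspa1b had 3 probe sets, and all 3 gave one picture. The brightest, 1427127_x_at, read 8947, 5816 and 4469.6 in the wild-type replicates and 7389, 5973 and 6447 in knockout. The plain probe set 1427126_at read 5407, 2329 and 2023 in wild type and 3498, 3038 and 3028 in knockout. Wild type replicate 1 was the highest and replicate 3 the lowest of all 6 arrays for each of the 3 probe sets, and the knockout values lay between them. The third, 1452318_a_at, ran from 2521 to 4784 on the wild-type arrays and from 3539 to 4379 on the others. The log2 changes were 0.10 (SE 0.20), 0.11 (SE 0.29) and 0.23 (SE 0.20), with unadjusted p of 0.639, 0.708 and 0.290 in limma. For the brightest, the 95% interval of -0.34 to 0.54 leaves room for a change of 0.79- to 1.45-fold. Without wild type replicate 1 its log2 change was 0.37, and without wild type replicate 3 it was -0.13. By the platform's naming, the suffix x marks probe sets with probes that may bind other transcripts, and with a near-identical neighbour the readings of Hspa1a and Hspa1b cannot be fully told apart. Whether the changes of both genes differ from each other was not tested.

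Hspa8 encodes HSC70, the constitutive HSP70, which also strips clathrin from endocytic vesicles. Its brightest probe set, 1455789_x_at, read 150643, 142942 and 156218 in wild type and 144658, 146287 and 153479 in knockout, with full overlap. The log2 change was -0.02 (SE 0.06, 95% interval -0.15 to 0.12), or 0.90- to 1.08-fold. The next, 1420623_x_at, spanned 99136 to 101889 on the wild-type arrays and 101183 to 103373 on the knockout arrays. The third, 1420622_a_at, read 32694, 27839 and 24154 in wild type and 26517, 30980 and 30266 in knockout, so that wild type replicate 1 was again the highest and replicate 3 the lowest array. The dimmest, 1431182_at, ran from 1361 to 1903 over all arrays. The 4 log2 changes lay between -0.06 and 0.06.

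Hsph1 encodes HSP105, the HSP110-type partner that exchanges nucleotide on HSP70. Probe set 1425993_a_at read 43790, 44075 and 42384 in wild type and 44606, 41186 and 39356 in knockout, a log2 change of -0.06 (SE 0.07, unadjusted p = 0.395 in limma). Probe set 1423566_a_at read 22189, 24737 and 20723 in wild type and 23702, 22017 and 17936 in knockout, a log2 change of -0.09 (SE 0.11). Knockout replicate 3 was the lowest array for both, and the groups overlapped.

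Dnajb1 encodes HSP40, the J-domain protein that loads substrates on HSP70. Probe set 1416755_at read 13643, 13287 and 10262 in wild type and 17762, 13397 and 10680.1 in knockout. Probe set 1416756_at placed the 6 arrays in the same order, with 6493 to 8550.5 on the wild-type arrays and 6556 to 10156 on the knockout arrays. Knockout replicate 1 was the highest array and wild type replicate 3 the lowest for both. The log2 changes were 0.15 (SE 0.16) and 0.11 (SE 0.15), with unadjusted p of 0.381 and 0.474 in limma. Without knockout replicate 1 the log2 change of the brighter probe set was -0.04.

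Hsp90aa1 encodes the inducible form of cytosolic HSP90. Its brightest probe set, 1426645_at, read 80390 in wild type replicate 1, 91761 in replicate 2 and 91364 in replicate 3, and 82410, 82760 and 90712 in the knockout replicates. The log2 change was -0.04 (SE 0.07, 95% interval -0.20 to 0.12). The other 2 bright probe sets, 1438902_a_at and 1437497_a_at, had log2 changes of 0.02 (SE 0.07) and -0.05 (SE 0.06). Replicate 1 of wild type was the lowest array for 1426645_at and the highest for 1437497_a_at, so the small steps were not shared between probe sets of this gene. The remaining 2 probe sets were dim and not tested: 1433251_at read 38 to 239 in wild type and 263 to 357 without inhibitor-1, and 1441827_x_at read 7.8 to 107 and 40 to 176.

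Chordc1 encodes a CHORD-domain cochaperone of HSP90 that is itself induced by heat shock. Its only probe set, 1460645_at, read 10351, 9655 and 6938 in wild type and 9634, 10669 and 9469 in knockout. The 3 knockout values lay within the range of wild type but for knockout replicate 2, the highest array, and wild type replicate 3 stood below the other 5. The log2 change was 0.16 (SE 0.13, 95% interval -0.13 to 0.46, unadjusted p = 0.249 in limma). Without wild type replicate 3 it was -0.01.

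Hspb1 encodes the small heat shock protein HSP25, which holds unfolded proteins without ATP and in brain is found mainly in glia, vessels and stressed neurons. Probe set 1422943_a_at read 7026, 6185 and 3655 in wild type and 5186, 6360.1 and 5765 in knockout, a log2 change of 0.09 (SE 0.20). Probe set 1425964_x_at read 3206, 2766 and 2566 in wild type and 2445, 4123 and 3668 in knockout, a log2 change of 0.23 (SE 0.18, unadjusted p = 0.234 in limma). The probe sets disagreed on single arrays: wild type replicate 3 was the lowest in the first and knockout replicate 1 in the second. Without wild type replicate 3 the change of the brighter one was -0.20.

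Hspd1 and Hspe1 encode HSP60 and HSP10, the barrel and the lid of the mitochondrial chaperonin. Both genes lie head to head on mouse chromosome 1, and the same 18 bases, chr1:55088059-55088076 of GRCm38.p6, fall in the upstream window of each. They are shown because they hold the longest run of heat shock units among the windows searched for these genes, each capital stretch being a chain of GAA and TTC units, with 6 bases on either side in lower case.
Hspe1, plus strand: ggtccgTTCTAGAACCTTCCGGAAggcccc
Hspd1, minus strand: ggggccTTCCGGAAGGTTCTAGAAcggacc
The run lies 89 to 72 bases upstream of the Hspe1 start and 144 to 127 bases upstream of one of the starts of Hspd1 in the table. Hspd1 read 28386, 29881 and 27107 in wild type and 28936, 28146 and 25614 in knockout, a log2 change of -0.05 (SE 0.07). Hspe1 read 18564, 19829 and 17082 in wild type and 19010.0, 19713 and 18795 in knockout at 1450668_s_at, a log2 change of 0.05 (SE 0.08). At its dimmer probe set, 1422579_at, the log2 change was 0.07 (SE 0.12). The groups overlapped for all 3 probe sets. For the brighter of Hspe1 the 95% interval was 0.93- to 1.16-fold, and for Hspd1 it was 0.87- to 1.08-fold.

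**Figure D2:**
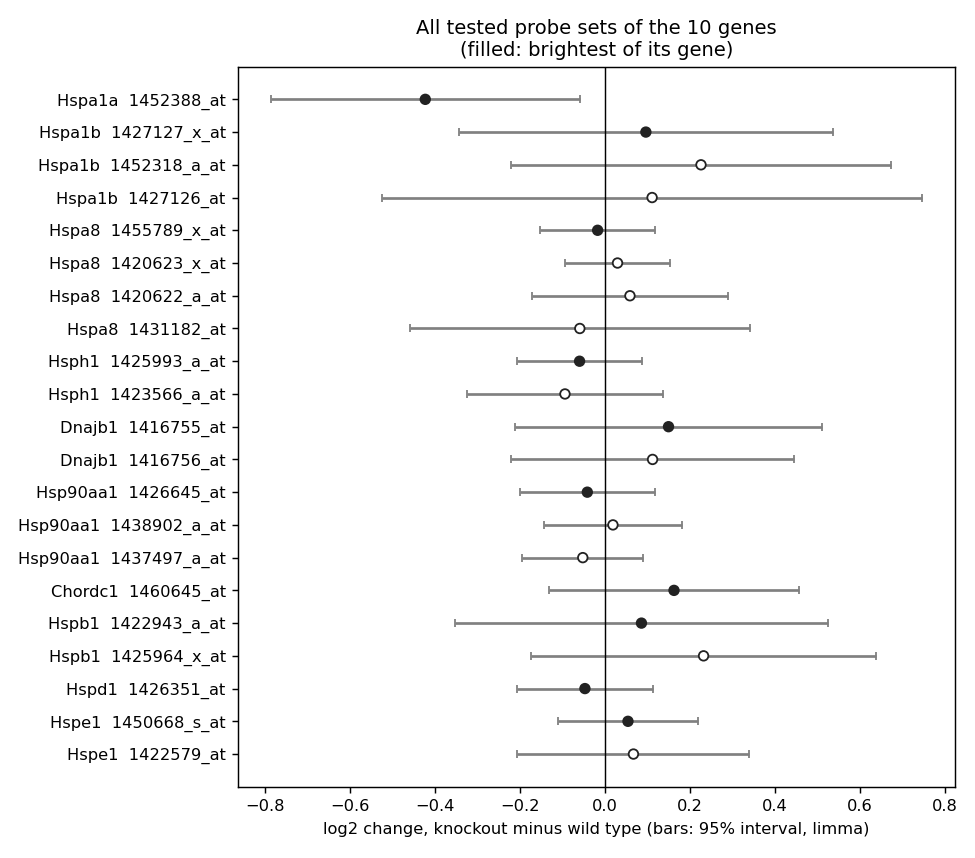
Log2 change (knockout minus wild type, horizontal axis) of the 21 tested probe sets with its 95% interval from limma, without adjustment; filled points are the brightest probe set of a gene. The interval of Hspa1a, -0.79 to -0.06, is the 1 interval that leaves out 0.

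Upstream windows of 250 bases were at hand for 8 of the 10 genes, in 11 windows. The letters searched were GAANNTTC and TTCNNGAA, each of which reads the same on both strands, and their chains of 3 alternating units with the same spacing, which are each other's reverse complement. At least 1 of the short forms occurred in 6 of the 8 genes: Hspa1a, Hspa1b, Hsph1, Hspb1, Hspd1 and Hspe1. Of all 27025 genes in the table, 14.5% held one. The 6 are not separate cases: Hspd1 and Hspe1 match at the same bases, and the windows of Hspa1a and Hspa1b are near copies. The long forms occurred for Hspd1 and Hspe1, which share them, and for 0.514% of all genes. A gene was counted once, however many matches its windows held. Hspb1 held 2 separate short matches, GAAGTTTC at 117 to 110 and GAACCTTC at 97 to 90 bases upstream, and Hsph1 held TTCTCGAA at 33 to 26 or 54 to 47 bases upstream, by start used. A match describes letters in these windows only.

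Several heat shock genes varied more between arrays of one genotype than most probe sets of like level. For each probe set the SD between arrays within a group, pooled over both groups, was set beside that of the 500 tested probe sets nearest in mean level. Of the 21 probe sets, 10 lay above the 90th percentile of their 500 neighbours, and they belong to 6 genes: Hspa1b, Hspa8, Hsph1, Dnajb1, Chordc1 and Hspb1. By brightest probe set, 4 of the 10 genes lay above it: Hspa1b, Dnajb1, Chordc1 and Hspb1. Hspa8 and Hsph1 were counted through a dimmer probe set only. Their brightest lay at percentiles 18.6 and 31.8. Probe sets of one gene read the same transcripts and are not separate evidence. The within-group SD of Hspa1b at 1427126_at was 0.55 on the log2 scale, 3.64 times the median of its neighbours. For Hspb1 at 1422943_a_at the ratio was 3.02, for Dnajb1 at 1416755_at 2.90 and for Chordc1 2.14. Hspa1a (0.95), Hspd1 (0.91), Hsph1 at 1425993_a_at (0.83), Hspe1 at 1450668_s_at (0.83) and Hspa8 at 1455789_x_at (0.72) had ratios below 1. The count above the 90th percentile was 6 without wild type replicate 1, 6 without replicate 1 of both groups, and 7 to 10 without any other array.

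**Figure D3:**
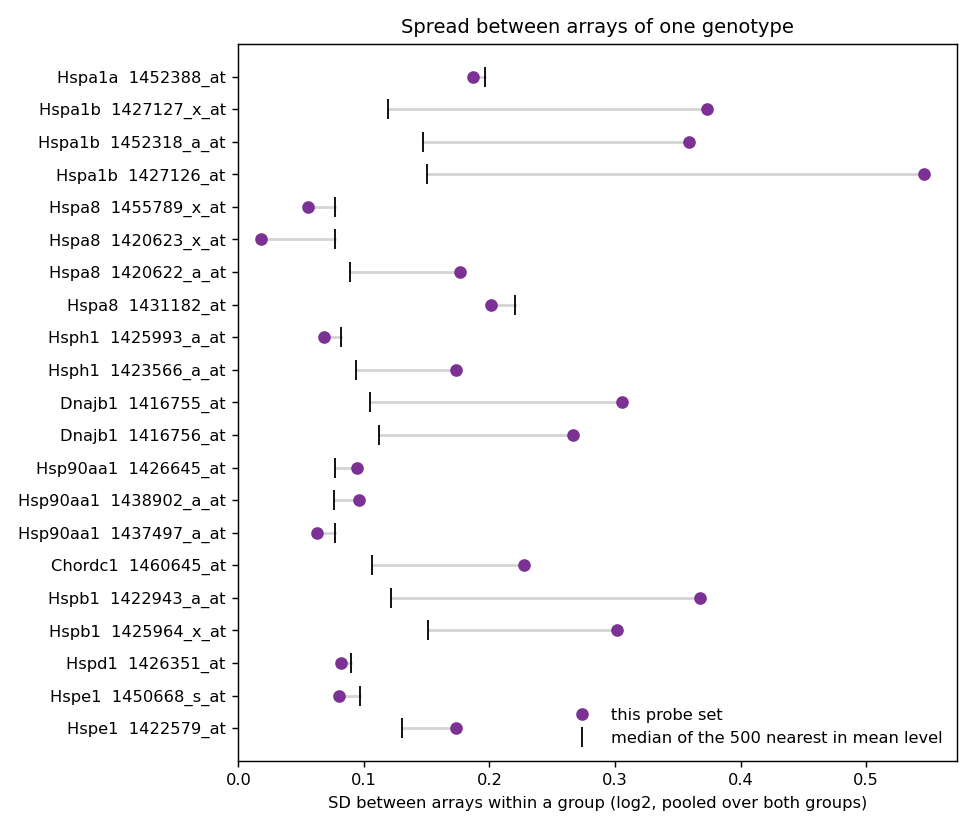
SD between arrays within a group (log2 scale, horizontal axis from 0) for each of the 21 tested probe sets (dots) and the median SD of the 500 probe sets nearest in mean level (ticks). Hspa1b, Dnajb1, Hspb1 and Chordc1 lie far to the right of their ticks, while Hsp90aa1, Hspd1 and the brighter probe sets of Hspa8 and Hspe1 lie near or left of theirs.

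The variation of several probe sets followed single arrays. Wild type replicate 3 was the lowest of the 6 arrays in 11 of 21 probe sets (52.4%, against 18.1% of all tested probe sets), and wild type replicate 1 the highest in 7 (33.3%, against 13.9%). These counts hold several probe sets of one gene. By brightest probe set, wild type replicate 3 was the lowest for 5 of the 10 genes. Wild type replicates 1 and 2 were each the highest for 3. The same shares over all genes were not taken. The mean centred log2 level of all 10 genes was 0.13, 0.04 and -0.17 on wild type replicates 1, 2 and 3 and 0.05, -0.02 and -0.04 on the knockout replicates. A profile of 6 of them was also taken, with genes chosen when earlier results of these data were known and not by the spread above. The mean centred log2 level of these 6, Hspa1b, Hsph1, Dnajb1, Hsp90aa1, Hspa8 and Chordc1, was 0.11 on wild type replicate 1, 0.00 on wild type replicate 2 and -0.19 on wild type replicate 3, and it was 0.11, 0.00 and -0.04 on knockout replicates 1, 2 and 3. Not every gene followed this pattern. Hspa1a had its lowest value on knockout replicate 2. Of the 6 genes in the profile, Hsp90aa1 was lowest on wild type replicate 1 (-0.10) and stood at 0.08 on wild type replicate 3. Hspa8 was highest on wild type replicate 3 (0.07). The order of the wild-type arrays was not particular to the 10 genes. The 18 tested chaperones of the endoplasmic reticulum stood at 0.12, -0.01 and -0.23 on wild type replicates 1, 2 and 3. On the knockout replicates they stood at 0.04, 0.06 and 0.02. Partners and relatives of HSP70 (0.06) and heat shock factors (0.17) were not low on wild type replicate 3. Immediate early genes, which respond within minutes to neuronal activity, stood low on replicate 3 of both groups: their mean centred level over 15 genes was -0.37 on wild type replicate 3 and -0.40 on knockout replicate 3, and 0.08 to 0.33 on the other 4. The level of choroid plexus markers was lowest on replicate 1 of both groups, at -0.75 and -0.24. Their part in the variation of the heat shock genes was not tested.

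**Figure D4:**
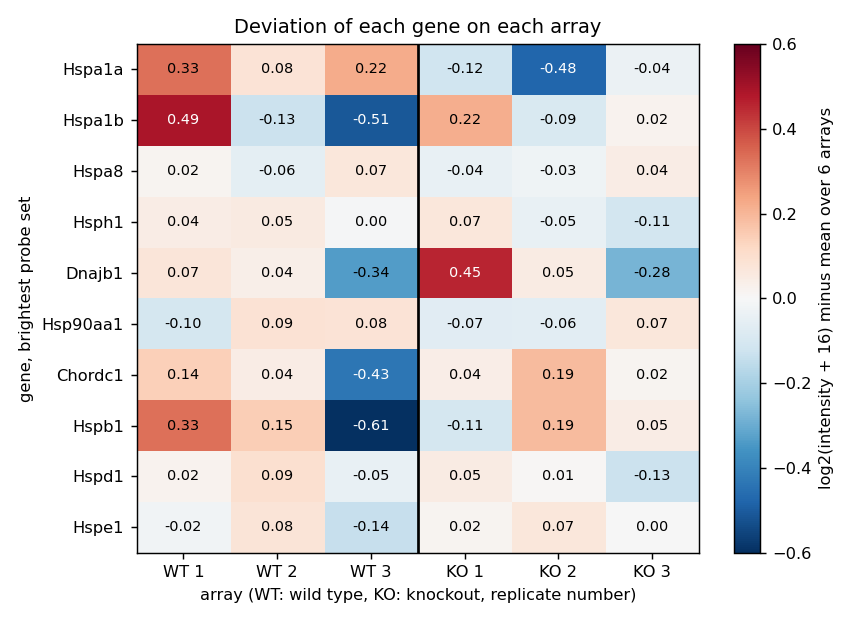
Log2(intensity + 16) of each gene's brightest probe set minus its mean over the 6 arrays, in numbers and colour (red above, blue below); the line parts wild type (WT) from knockout (KO). Wild type replicate 3 is low for Hspb1 (-0.61), Hspa1b (-0.51), Chordc1 (-0.43) and Dnajb1 (-0.34). It lies above the mean for Hspa1a (0.22), Hsp90aa1 (0.08) and Hspa8 (0.07).

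The genes nearest to that 6-gene profile, by the root mean square difference of centred log2 values over the 6 arrays, were Galt (0.019), a galactose enzyme, Abcb1a (0.024), a drug efflux pump of brain vessels, Cstf3 (0.024), H2aw (0.025) and Stard7 (0.029). The profile itself has a root mean square of 0.10, and 1314 of 12483 genes lay within 0.1 of it. The 6 heat shock genes themselves lay at a median of 0.15 from their mean, against a median of 0.18 over the 12483 genes.

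The wider chaperone network was read from 8 lists with 98 genes, of which 86 were tested at their brightest probe set. None passed (limma, lowest adjusted p 0.988), against 0.016% of all genes. An unadjusted p under 0.05 was found for 4 of them, 2 higher and 2 lower, or 4.65% against 4.75% of all genes. Changes above 0 were found for 39 of 86, against 50.1% of all genes, and the median log2 change was -0.01. Of the heat shock factors, Hsf4 was tested and had a log2 change of -0.001. Hsbp1, which encodes a protein that binds HSF1, had a log2 change of 0.02. Hsf2 was too dim, and Hsf1 was not analysed here.

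By group, 0 of 14 tested partners and relatives of HSP70 passed, 5 above 0 and 9 below (median -0.04). Hspa14, a ribosome-associated HSP70 relative, had the lowest change of them at -0.36 (SE 0.13, unadjusted p = 0.0149, limma), while its other tested and dim probe set had 0.03. Of 11 J-domain proteins 5 were above 0 (median -0.06), with Dnaja1 at 0.02 and Dnajb5 at 0.17. Of 11 genes of HSP90 and its cochaperones 5 were above 0 (median -0.02), with Stip1, the adaptor between HSP70 and HSP90, at -0.02 and Ahsa1, which stimulates the HSP90 ATPase, at -0.07. Of 14 subunits of the TRiC chaperonin and prefoldin 5 were above 0 (median -0.05), and of 12 mitochondrial chaperones and proteases 5 (median -0.05). The groups did not overlap for 3 of these 12, against 10.5% of all genes, and for 0 or 1 gene in each other chaperone list. The mean centred log2 level of the 12 was 0.011 to 0.064 on the wild-type arrays and -0.066 to 0.006 on the knockout arrays, and 0 passed.

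Of 4 tested small heat shock proteins 2 were above 0. Hspb8, the partner of BAG3 in selective autophagy, had a log2 change of -0.71 (SE 0.29, unadjusted p = 0.0338, limma) at 1456434_x_at. That probe set read 3366, 3024 and 2396 in wild type and 1065, 2930.4 and 1759 in knockout, with overlap at knockout replicate 2. Its other 2 probe sets had log2 changes of -0.12 and 0.15, so the probe sets of this gene disagree. Cryab, alpha-B-crystallin, had a log2 change of 0.03.

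The chaperones of the endoplasmic reticulum, most of which answer to the unfolded protein response, had 11 of 18 changes above 0 (median 0.04) and 0 passed. Herpud1, a component of ER-associated degradation, had the highest change, 0.41 (SE 0.15, unadjusted p = 0.0172, limma) at 1448185_at. That probe set read 8157, 7149 and 6437 in wild type and 10527, 11233 and 7451 in knockout, where knockout replicate 3 lay within the wild-type range. Its other probe set had 0.24 (SE 0.23). Hspa5, the ER form of HSP70, had 0.05, and Hsp90b1, the ER form of HSP90, had -0.08.

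**Figure D5:**
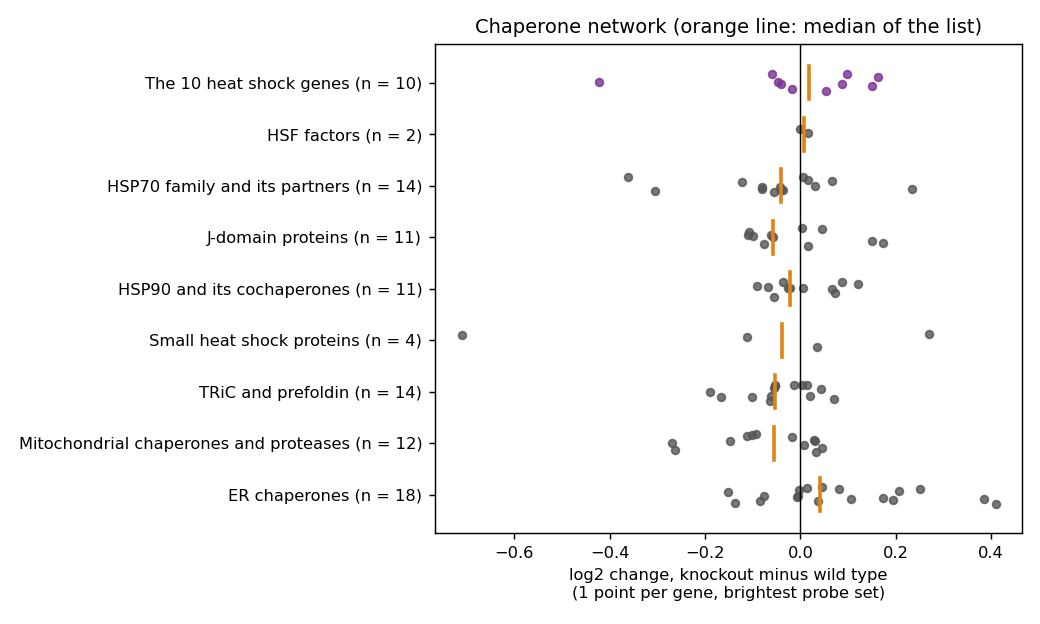
Log2 change (knockout minus wild type, horizontal axis) of the 10 heat shock genes (purple) and of the tested genes of 8 chaperone lists (grey), 1 point per gene at its brightest probe set; orange lines are medians. The medians lie between -0.06 and 0.04, and the points farthest from 0 are Hspb8 (-0.71), Hspa1a (-0.42) and Herpud1 (0.41), none of which passed.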

How the data were processed

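The authors deposited 1 table with a linear intensity value for each probe set and array, and the sources used here do not name the software behind it. On each array the mean without the top and bottom 2% of values was 2500, so arrays had been scaled before deposit, and that scale was kept. The platform annotation gave 1 symbol for 34958 probe sets, several for 932 and none for 9211. The 64 control probe sets and the 40% with the lowest mean log2 level (below 8.44) were left out. Log2(intensity + 16) was fitted with limma 3.58.1 in R 4.3.3 (1 term for genotype, moderated variances that follow intensity, two-sided tests, Benjamini-Hochberg over 26999 probe sets), after a check on simulated data. A fold on this scale understates changes of dim probe sets. The number of arrays limits the precision.

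Members, lists and tests were chosen with earlier results of these data known. The genes named are the 10 members, Ppp1r1a and the 5 genes nearest to the profile. Of each chaperone list, the genes of highest and lowest change at an unadjusted p under 0.05 (limma) are named too. Genes of the cell type marker lists that met this rule are left out. Other genes are given as examples, chosen after their values were seen. Promoter windows are from RefSeq (GRCm38.p6), with the 250 bases before the start used; those of Hspa8 and Hsp90aa1 and the proteins were not analysed here. Alternatives were other pseudocounts, filters, scalings, variance models, array weights, a replicate block, single arrays left out, averaging the probe sets of a gene and, added after seeing the data, leaving out replicate 1 of both groups.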

Additional observations from a re-analysis of the deposited data

How the results depend on the processing

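In 17 alternatives, 0 heat shock probe sets passed the threshold (limma). The direction of a gene's change was kept in 159 of 170 comparisons and turned in 11, each time for a change that passed in neither fit. The cause was not tested. Other filters, the fit without an intensity trend and the replicate block cannot alter the log2 change itself. Their comparisons are among the 159 by construction, so this count overstates stability. Leaving out 1 array, the log2 change ran from -0.133 (without wild type replicate 3) to 0.366 for Hspa1b, from -0.0508 to 0.0132 (without wild type replicate 3) for Hspa8, from -0.0126 (without wild type replicate 3) to 0.275 for Chordc1 and from -0.0401 (without knockout replicate 1) to 0.326 for Dnajb1. It ran from -0.197 (without wild type replicate 3) to 0.273 for Hspb1, from -0.0827 to 0.00522 (without knockout replicate 3) for Hspd1 and from -0.00133 (without wild type replicate 3) to 0.106 for Hspe1. Without knockout replicate 1 that of Hspa8 was 4.55e-05. For Hspa8 it was 0.00678 with array weights, 0.00336 as the average over its probe sets and 0.00393 without replicate 1 of both groups, an alternative added after seeing the data. Hspa1a stayed below 0 in all 17, at -0.51 to -0.29, with limma adjusted p of at least 0.395. Every knockout value of Hspa1a lay below every wild-type value, so leaving out arrays could not turn its sign. Averaging over its only probe set could not either. The median log2 change of the 10 genes ran from -0.045 to 0.037.

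Over all probe sets, 3 were called lower and 0 higher. The lower count was 1 without an intensity trend and 7 without replicate 1 of both groups. The higher count was 0 to 2 leaving out 1 array (2 without knockout replicate 1), 7 when replicate 1 of both groups was left out, and 7 in the fit with a replicate block. Same-numbered arrays correlated at 0.24, 0.05 and 0.10 in their deviations from the group means, and no label pairs them. Wild type replicate 3 correlated more with knockout replicate 2 (0.11) than with its own number. With the replicate block the heat shock genes had 0 calls. Their median log2 change of 0.02 is the same by construction, because each replicate number occurs once in each group. The median 95% half-width of a log2 change over the 21 tested heat shock probe sets was 0.27.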
